A study of Mus musculus with 4 samples.

Results

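Small nucleolar RNAs (snoRNAs) and small Cajal body RNAs were followed over the 4 arrays of the study. They were taken as every probe set whose single gene symbol in the platform annotation begins with Snord, Snora or Scarna, which gave 81 of 41345 probe sets on the array, for 78 genes. Of these, 47 probe sets belong to box C/D snoRNAs (47 genes), 28 to box H/ACA snoRNAs (26 genes) and 6 to Cajal body RNAs (5 genes). Snora19, Snora33 and Scarna17 have 2 probe sets each, and those of Snora19 carry identical values on all arrays, so 80 of the 81 hold values of their own. None of the 81 carries a symbol beginning with Snord113, Snord114, Snord115 or Snord116, the imprinted snoRNA repeats.

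All samples were mouse embryonic stem cells in which Prdm14 had been knocked out. PRDM14 is a zinc finger transcription regulator known for its part in naive pluripotency and in germ cells. Into these knockout cells came mouse PRDM14, sea urchin PRDM14, sea urchin PRDM14 plus the sea urchin co-repressor CBFA2T, or an empty vector, and all of them grew in 2i and LIF medium on STO fibroblast feeders. Each of the 4 groups had 1 array, all on strip 2, so values stand without an error, no test could be made, and precision is limited by this number of arrays. Whether each line was 1 clone or a pool was not given in the sources used here. Values are log2 expression values made by the authors with RMA, which equalises the distributions of the arrays. A difference of 1 on this scale is 2-fold.

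SnoRNAs are short nuclear RNAs that guide chemical modification of other RNAs. Box C/D snoRNAs bind fibrillarin and its partners and direct ribose methylation, and box H/ACA snoRNAs bind dyskerin and its partners and direct the change of uridine to pseudouridine, both mainly in ribosomal RNA. Small Cajal body RNAs do the same for spliceosomal RNAs in the Cajal body. A few snoRNAs are instead needed to cut or acetylate precursor ribosomal RNA. In vertebrates most of them are cut out of introns of host genes, many of which encode ribosomal proteins or are noncoding RNAs whose introns are their best known product.

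The 4 arrays were alike, with medians between 4.54 and 4.55 over all probe sets and pairwise Pearson's r between 0.986 and 0.989. The 10 stem cell marker probe sets lay between 4.98 and 9.28, with Nanog at 8.75 to 9.28. Tdgf1 was at 8.42 with mouse PRDM14, 8.74 with sea urchin PRDM14, 7.58 with CBFA2T added and 8.25 with the empty vector. With CBFA2T added against sea urchin PRDM14 alone, Tdgf1 differed by -1.16, past 2-fold, and Nanog by 0.52. Fibroblast feeder markers lay between 2.76 and 8.09 over 16 probe sets. Their summed linear signal was 856 with mouse PRDM14, 823 with sea urchin PRDM14, 738 with CBFA2T added and 819 with the empty vector. Fn1, the highest of them, weighs most in this sum and was at 8.09, 7.86, 7.30 and 7.79 in that order. The median of the list hardly differed, at 5.27, 5.36, 5.27 and 5.32. Lum, the lowest of them, was at 2.76 to 3.12.

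As a group, the snoRNAs and Cajal body RNAs were higher on the mouse PRDM14 array than on the empty vector array. The median log2 difference over the 81 probe sets was 0.20, with 62 above 0, while over all 23521 probe sets with 1 gene the median was -0.002 and 49.2% lay above 0. With sea urchin PRDM14 alone the median was 0.12 and 53 of 81 were above 0, against -0.001 and 49.6% over all probe sets with 1 gene. With CBFA2T added the median was 0.01 and 42 were above 0, against 0.001 and 50.3%. These 3 differences share the empty vector array. In total RNA of a culture, fewer cells of a type and less RNA per cell cannot be told apart.

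The members also varied more between arrays than other genes did. The distance from a member's lowest to its highest array had a median of 0.35, against 0.19 for all probe sets with 1 gene. It was 0.41 for box C/D, 0.33 for box H/ACA and 0.29 for Cajal body members. Of the 81, 22 stayed within 0.25, against 16673 of 23521 probe sets with 1 gene. The highest of the 4 values was on the mouse PRDM14 array for 40 members (49.4%, against 24.9% of all probe sets with 1 gene). It was on the sea urchin PRDM14 array for 20 (24.69%, against 24.04%), close to the share over all. The array with CBFA2T held it for 8 (9.88%, against 25.81%) and the empty vector array for 13 (16.05%, against 25.24%), both below that share. The lowest value was on the empty vector array for 37 (45.7%, against 24.8%) and on the array with CBFA2T for 25 (30.9%, against 24.8%). It was with sea urchin PRDM14 for 14 (17.3%, against 24.3%) and with mouse PRDM14 for 5 (6.2%, against 26.1%).

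**Figure D1:**
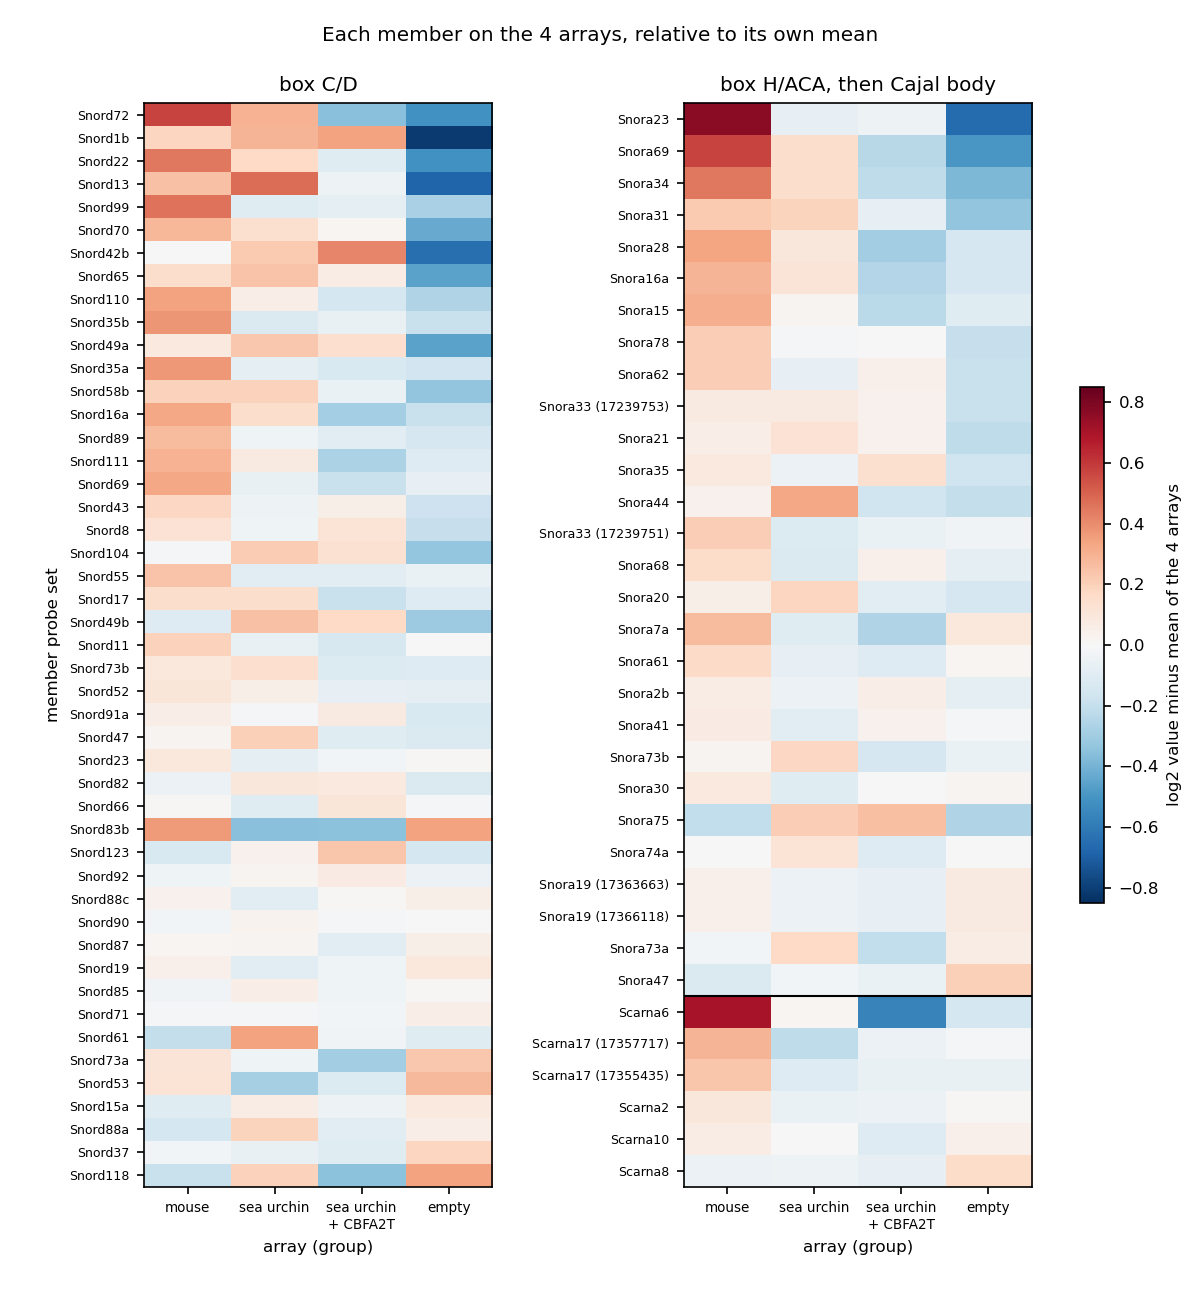
Rows are the 81 member probe sets and columns are the arrays; colour gives the log2 value minus the member's own mean over the 4 arrays, and probe set numbers separate genes with 2 probe sets. Within each class rows run from the largest to the smallest mouse PRDM14 minus empty vector difference; the top rows are red with mouse PRDM14 and blue with the empty vector, while Snord118, at the bottom of its class, is highest with the empty vector (5.75).

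This pattern lay mostly in members with signal above the middle of the array. For the 60 members with a 4-array mean of at least 4.84, which is the median value of probe sets with 1 gene, the median difference was 0.27 with mouse PRDM14, 0.16 with sea urchin PRDM14 and 0.03 once CBFA2T was added. For the 21 dimmer members it was 0.01, 0.04 and -0.05. RMA values carry no detection call, so whether a dim member was above background is not known.

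Counted by size, 3 of the 81 members were higher by 2-fold or more with mouse PRDM14 than with the empty vector and 0 were lower by as much. Over all probe sets with 1 gene, 0.0298% were that much higher (7 probe sets) and 0.0128% that much lower. The 3 members are thus 3 of the 7. At 1.5-fold, 13 members were higher and 0 lower, against 0.187% higher (44 probe sets) and 0.123% lower in all. They comprised 9 box C/D, 3 box H/ACA and 1 Cajal body member.

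Sea urchin PRDM14 alone gave 2 members at least 2-fold higher and 0 lower, against 0.017% higher (4 probe sets) and 0.00425% lower of all probe sets with 1 gene. At 1.5-fold it gave 8 higher and 1 lower, against 0.225% and 0.149%. With CBFA2T added, 2 members were at least 2-fold higher than with the empty vector and 0 lower, against 0.102% (24 probe sets) and 0.0255%. At 1.5-fold, 5 were higher and 2 lower, against 0.37% and 0.221%.

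**Figure D2:**
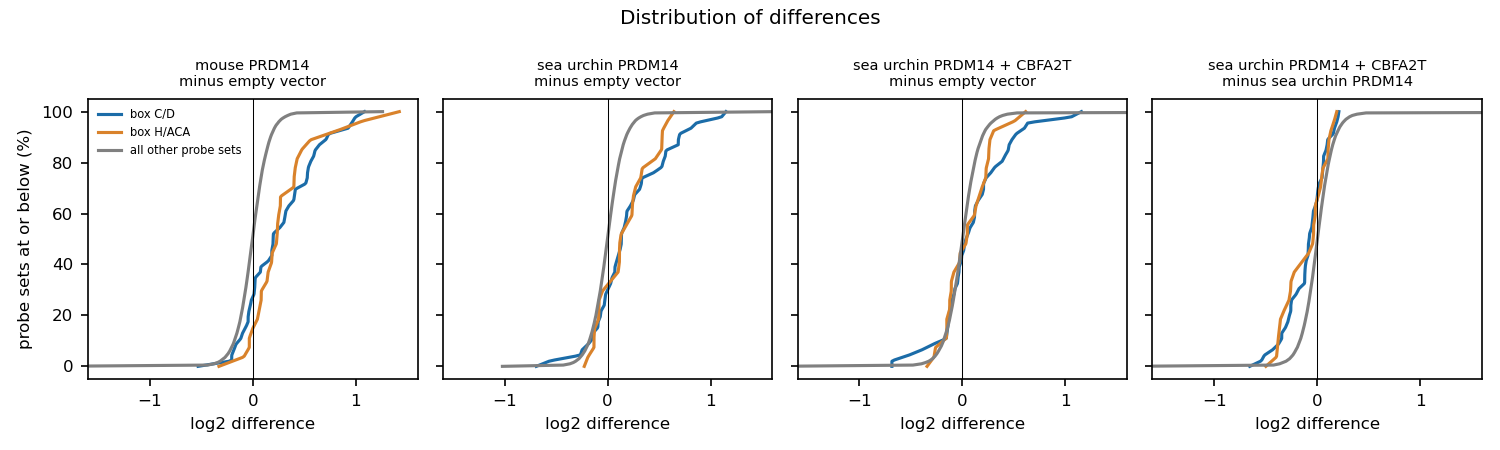
Each panel gives, for 1 of the 4 main comparisons, the percentage of probe sets (y axis) at or below a log2 difference (x axis) for box C/D members, box H/ACA members and all other probe sets with 1 gene. Both member curves lie right of the grey curve over most of their length with mouse PRDM14 (medians 0.20 and 0.23), less so with sea urchin PRDM14, and slightly left of it where CBFA2T was added to sea urchin PRDM14 (medians -0.08 and -0.04).

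Among the box C/D snoRNAs, the median difference from the empty vector was 0.20 with mouse PRDM14 (34 of 47 above 0), 0.13 with sea urchin PRDM14 (33 above 0) and 0.03 with CBFA2T added (26 above 0). Snord1b, one of the snoRNAs of the noncoding host gene Snhg16 on chromosome 11, was at 8.48 with mouse PRDM14, 8.59 with sea urchin PRDM14, 8.64 once CBFA2T was added and 7.48 with the empty vector. The empty vector array thus stood alone below the other 3. The differences were 0.996, just under 2-fold, then 1.10 and 1.16. Near-identical copies of this snoRNA exist (Snord1a and Snord1c). Probe sets paired with both Snord1c and Snord1b differed by 0.99, 1.05 and 1.02, and by 0.94, 0.99 and 0.99, in the same order. A probe set paired with Snhg16 and Snord1a differed by -0.14, -0.04 and -0.19. How signal is divided among the copies within a probe set was not given in the sources used here.

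Snord13, also called U13, is transcribed from a gene of its own and is needed for acetylation of the small-subunit ribosomal RNA. It was at 8.13 with mouse PRDM14, 8.35 with sea urchin PRDM14, 7.84 with CBFA2T added and 7.20 with the empty vector. The empty vector array was again lowest, and the difference was 0.93 with mouse PRDM14, 1.15 (2.22-fold) with sea urchin PRDM14 and 0.64 once CBFA2T was added. Snord118, the U8 RNA of large-subunit ribosomal RNA maturation and likewise a gene of its own, ran the other way. It was at 5.22 with mouse PRDM14, 5.61 with sea urchin PRDM14, 5.07 with CBFA2T added and 5.75 with the empty vector, a difference of -0.53, -0.14 and -0.68 from the empty vector.

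Snord42b sits in the gene of the large-subunit protein Rpl23a on chromosome 11. It was at 6.82 with mouse PRDM14, 7.04 with sea urchin PRDM14, 7.23 once CBFA2T was added and 6.17 with the empty vector. All 3 arrays with PRDM14 were higher, by 0.65, 0.87 and 1.05, and only the last passed 2-fold. Snord72, in the gene of the large-subunit protein Rpl37, was at 5.27 with mouse PRDM14 and 4.99 with sea urchin PRDM14, but at 4.34 with CBFA2T added and 4.19 with the empty vector. Its differences from the empty vector were 1.09, 0.81 and 0.15, so the array with CBFA2T lay close to the empty vector array. Snord22 (U22), needed for small-subunit ribosomal RNA processing and encoded in Snhg1, was at 9.9999 with mouse PRDM14, 9.72 with sea urchin PRDM14, 9.45 with CBFA2T added and 9.04 with the empty vector. The mouse PRDM14 difference of 0.96 stayed under 2-fold.

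Other box C/D members past 1.5-fold with mouse PRDM14 were Snord99 (0.74), Snord70 (0.71), Snord65 (0.60) and Snord110 (0.59). Snord83b, in the gene of the large-subunit protein Rpl3, was the 1 member at least 1.5-fold lower with sea urchin PRDM14 than with the empty vector. It was at 5.22 with mouse PRDM14, 4.503 with sea urchin PRDM14, 4.511 with CBFA2T added and 5.20 with the empty vector. The sea urchin arrays were thus both about 0.7 below the other arrays, with differences of -0.69 and -0.68 from the empty vector and of -0.71 and -0.71 from mouse PRDM14. Snord53 (-0.56 with sea urchin PRDM14) and Snord73a (-0.52 with CBFA2T added) were the next lowest in those comparisons.

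The box H/ACA snoRNAs had a median difference of 0.23 with mouse PRDM14 (23 of 28 above 0), 0.12 with sea urchin PRDM14 (19 above 0) and 0.04 with CBFA2T added (15 above 0). Snora23, in the gene of the nuclear import receptor Ipo7, showed the largest single difference of any member. It was at 6.80 with mouse PRDM14, 5.95 with sea urchin PRDM14, 5.99 with CBFA2T added and 5.37 with the empty vector. The mouse PRDM14 array stood above both sea urchin arrays, and these above the empty vector array. The difference from the empty vector was 1.42 (2.68-fold) with mouse PRDM14, 0.58 with sea urchin PRDM14 and 0.61 once CBFA2T was added.

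Snora69, in the gene of the large-subunit protein Rpl39 on the X chromosome, was at 5.33 with mouse PRDM14, 4.91 with sea urchin PRDM14, 4.52 with CBFA2T added and 4.26 with the empty vector. Its difference with mouse PRDM14 was 1.07 (2.09-fold), with the values of CBFA2T added and of the empty vector below 4.84. Snora34, in Kansl2, a gene of a histone acetyltransferase complex, was at 7.11 with mouse PRDM14, 6.81 with sea urchin PRDM14, 6.45 with CBFA2T added and 6.28 with the empty vector. In both genes the arrays stood in the same order, and Snora34 differed by 0.83, under 2-fold, with mouse PRDM14. Snora31 (0.56), Snora28 (0.48) and Snora16a (0.43) followed.

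At the other end of this class, Snora47 was lower on all 3 arrays with PRDM14, at 6.66, 6.76 and 6.72 in the order mouse, sea urchin and sea urchin with CBFA2T, against 6.98 with the empty vector. Snora73a and Snora73b, the U17 RNAs that act in small-subunit ribosomal RNA cleavage, are both encoded in Snhg3. Snora73a differed by -0.09, 0.10 and -0.28 from the empty vector in the same order, and Snora73b by 0.08, 0.24 and -0.08. Snora33 showed how far probe sets of 1 gene can differ. One of its probe sets differed by 0.27, 0.27 and 0.23 and the other by 0.24, -0.08 and -0.03. The second of these was the dimmer, at 5.29 to 5.61 against 10.06 to 10.33 for the first.

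The 6 Cajal body probe sets followed the mouse PRDM14 pattern but not the sea urchin one. Their median difference from the empty vector was 0.19 with mouse PRDM14 (5 of 6 above 0), -0.06 with sea urchin PRDM14 (1 of 6) and -0.11 with CBFA2T added (1 of 6). Scarna6, in the autophagy gene Atg16l1, was at 7.90 with mouse PRDM14, 7.22 with sea urchin PRDM14, 6.64 with CBFA2T added and 7.05 with the empty vector. The mouse PRDM14 array was the highest and the array with CBFA2T the lowest, with the other arrays between them. Both probe sets of Scarna17 differed by 0.30 with mouse PRDM14. Scarna2 (0.08) and Scarna10 (0.02) hardly differed, and Scarna8 was lower by 0.20 to 0.22 on all 3 arrays with PRDM14. Over genes in place of probe sets, which counts Scarna17 once, the class median with mouse PRDM14 was 0.084.

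**Figure D3:**
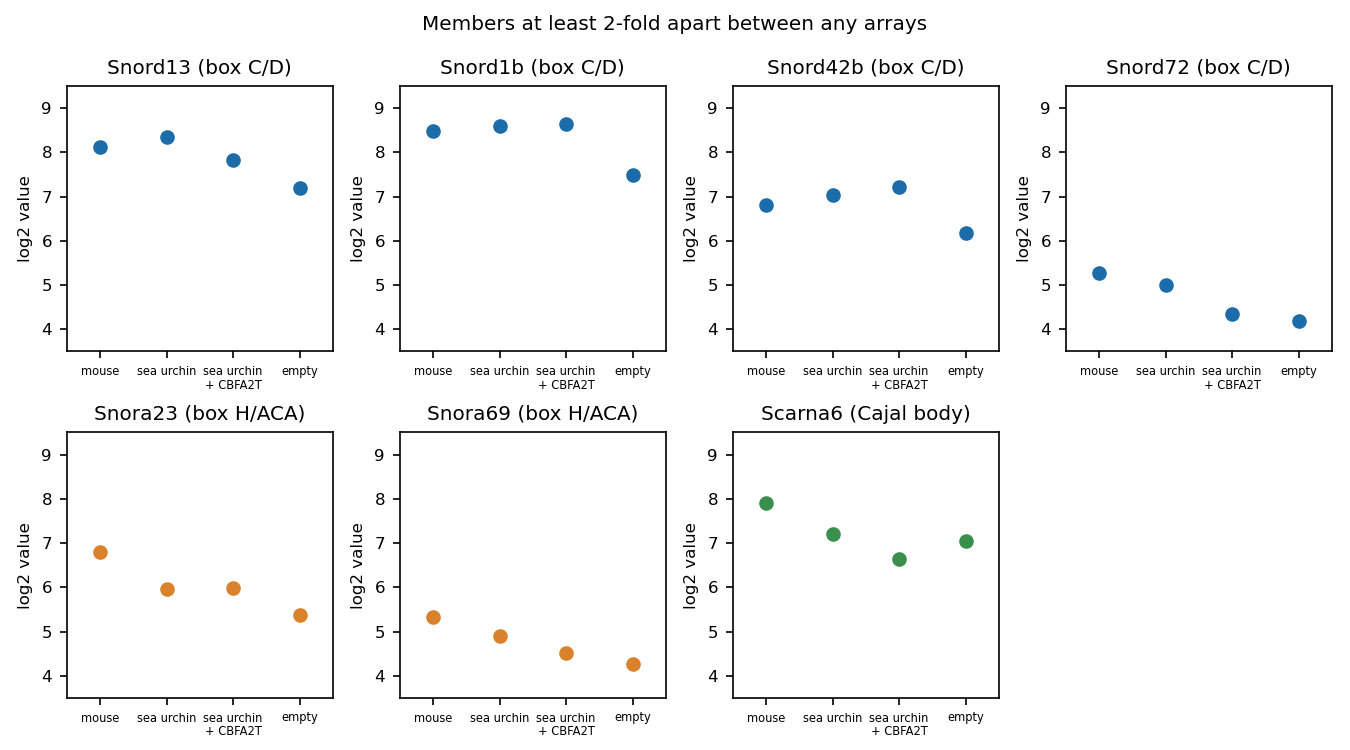
Points are the log2 values of the 7 members at least 2-fold apart between any arrays, with 1 array per group on the x axis and the same y axis in all panels. The empty vector point is the lowest in every panel but that of Scarna6, where the array with CBFA2T is lowest (6.64).

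Adding CBFA2T to sea urchin PRDM14 asks what the co-repressor changes beside PRDM14. Here 0 members reached 2-fold upwards and 0 downwards, against 0.0808% and 0.0255% of all probe sets with 1 gene. The median difference over the 81 was -0.05 and 52 of them lay below 0. Over all 23521 probe sets with 1 gene the median was 0.002 and 11608 lay below 0. Class medians were -0.08 for box C/D, -0.04 for box H/ACA and -0.01 for Cajal body members. At 1.5-fold there were 0 higher and 1 lower, against 0.255% and 0.128%. That member was Snord72 (-0.66). The next were Scarna6 (-0.58), Snord118 (-0.54), Snord13 (-0.51) and Snora44 (-0.50). The largest positive differences were in Snord66 (0.21), Snord123 (0.20), Snora35 (0.19) and Snord42b (0.19).

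Against mouse PRDM14 directly, the sea urchin PRDM14 array had 0 members at least 2-fold higher and 0 lower. The shares over all probe sets with 1 gene were 0.0255% and 0.0085%. Below 0 lay 51 of the 81 (median -0.12), against 11608 of all 23521 probe sets with 1 gene (median 0.002). Snora23 (-0.84), Snord83b (-0.71) and Scarna6 (-0.69) were at least 1.5-fold lower, against 0.191% of all probe sets with 1 gene. Higher by as much were 0 members, against 0.183%. With CBFA2T added, 0 members were higher than with mouse PRDM14 by 2-fold and 1 was lower, against 0.085% and 0.0298%. That was Scarna6 (-1.27, 2.40-fold). In this comparison 64 of 81 members lay below 0, against 11591 of all 23521 probe sets with 1 gene. The member median was -0.15, against 0.002, and 8 members were at least 1.5-fold lower, against 0.221%. The 8 included Snord72 (-0.93), Snora23 (-0.81), Snora69 (-0.81) and Snora34 (-0.66), which had also been among the highest with mouse PRDM14 against the empty vector. These comparisons share the mouse PRDM14 array.

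Of the pairs of differences that share no array, mouse PRDM14 minus empty vector and CBFA2T added minus sea urchin PRDM14 alone gave a Pearson's r of -0.23 across the 81 members, with a Spearman's rho of -0.18, against 0.07 and 0.05 across all probe sets with 1 gene. For sea urchin PRDM14 minus empty vector and CBFA2T added minus mouse PRDM14 they were 0.01 and -0.04, against 0.13 and 0.11. For CBFA2T added minus empty vector and sea urchin minus mouse PRDM14 they were 0.21 and 0.16, against 0.06 and 0.06. These are descriptions across RNAs that share arrays and often a host gene.

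The members lie on 20 chromosomes, with 9 probe sets each on chromosomes 1, 4 and 11. The 9 of chromosome 11 had a median difference from the empty vector of 0.31 with mouse PRDM14, 0.56 with sea urchin PRDM14 and 0.48 once CBFA2T was added, and 8 of 9 were above 0 each time. The 72 on other chromosomes had medians of 0.19, 0.11 and -0.02. Other probe sets of chromosome 11 (1736) had medians of -0.006, 0.037 and 0.043. The 9 are Snord1b, Snord42b and Snord118, described above, and Snord104, Snord91a, Snora21 and the trio Snord49a, Snord49b and Snord65. The part of the small shift of the chromosome in these values was not tested.

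That trio lies in 1 noncoding host gene, 2410006H16Rik, and all 3 members were higher with PRDM14 on each array, by unequal amounts with mouse PRDM14. Snord49a was at 8.87 with mouse PRDM14, 9.02 with sea urchin PRDM14, 8.93 with CBFA2T added and 8.33 with the empty vector. Its difference was 0.54, 0.69 and 0.60, that of Snord65 was 0.60, 0.70 and 0.52, and that of Snord49b was 0.20, 0.56 and 0.48. The host itself differed by 0.14, 0.27 and 0.19.

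Members of 1 host often differed by unequal amounts. There were 11 hosts with several member genes, holding 25 members. The spread between members of 1 host had a median of 0.33 with mouse PRDM14 against the empty vector (0.03 to 0.69 over the 11 hosts), 0.50 with sea urchin PRDM14 (0.13 to 0.82) and 0.30 with CBFA2T added (0.01 to 0.91). In Snhg12, with mouse PRDM14, Snord99 differed by 0.74, Snora16a by 0.43, Snora44 by 0.24 and Snora61 by 0.15, while Snhg12 itself, dim at 3.82 to 4.10, differed by 0.10. In the gene of Nop58, a box C/D core protein, Snord70 differed by 0.71 and Snord11 by 0.20, and Nop58 itself by -0.01. In Rpl3, Snord83b differed by -0.69 with sea urchin PRDM14 and Snord43 by 0.13.

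A single host gene could be assigned by position for 71 members, among them 19 probe sets in ribosomal protein genes, 17 in noncoding genes and 35 in other protein-coding genes. A further 6 lie in several overlapping genes and 4 in none. With mouse PRDM14 against the empty vector the median difference was 0.30 for members in ribosomal protein genes, 0.30 in noncoding hosts and 0.07 in other protein-coding hosts. With sea urchin PRDM14 the medians were 0.12, 0.24 and 0.04, and with CBFA2T added 0.12, 0.03 and -0.04.

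Host genes themselves showed little of the members' pattern. For the 60 members whose 44 hosts have probe sets of their own, the member median with mouse PRDM14 was 0.19, against 0.001 for the hosts, which ranged from -0.30 to 0.29. The member exceeded its host in 46 of 60. With sea urchin PRDM14 the medians were 0.13 for members and 0.02 for hosts, and with CBFA2T added -0.02 and 0.06. Pearson's r between member and host differences was 0.11, 0.14 and 0.23 in these comparisons, across members that partly share hosts. Ipo7 differed by 0.10 with mouse PRDM14, where its Snora23 differed by 1.42. Rpl23a, in contrast, differed by -0.30 with mouse PRDM14, 0.43 with sea urchin PRDM14 and 0.44 once CBFA2T was added, beside 0.65, 0.87 and 1.05 for its Snord42b.

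**Figure D4:**
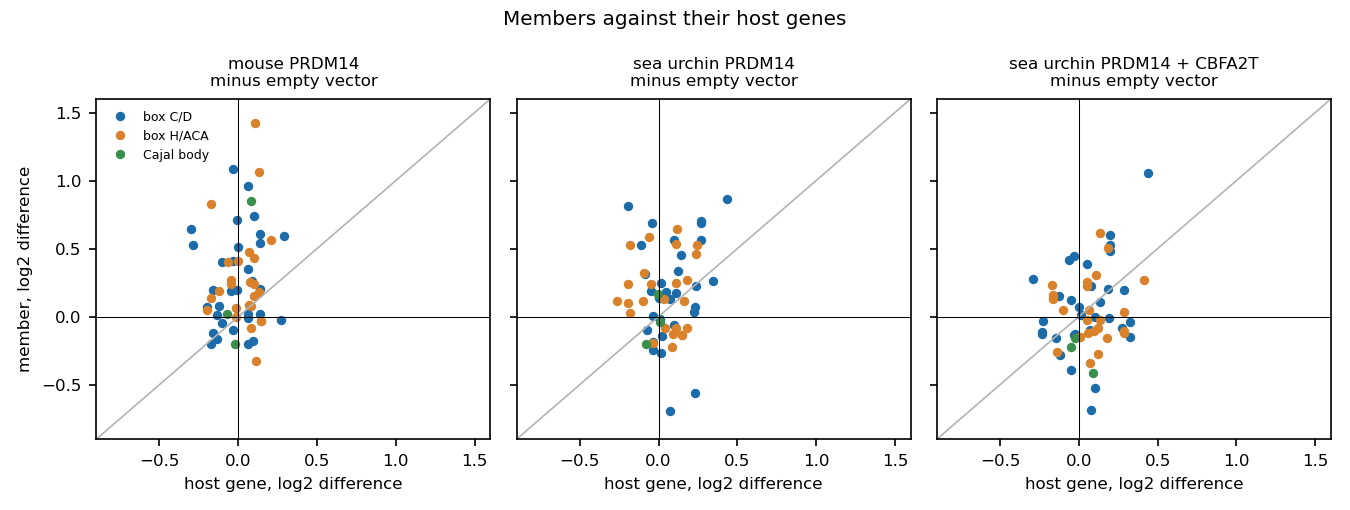
Each point is 1 of the 60 members with a measured host gene, with the host's log2 difference on the x axis and the member's on the y axis, in the 3 comparisons with the empty vector; the grey line marks equal differences. Points spread widely along y and little along x, and with mouse PRDM14 46 of 60 lie above the grey line.

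Start regions are shown for 4 of the 6 host genes of members past 2-fold, and those of Rpl23a and Atg16l1 are not. They are shown because genes for the translation machinery and many noncoding snoRNA hosts are known to begin their transcripts with a run of pyrimidines (C or T), the terminal oligopyrimidine tract. Sequences are from RefSeq, build GRCm38.p6, from 60 bases before to 20 bases from the annotated start on, 5′ to 3′ on the gene's strand. Capitals mark runs of 6 or more pyrimidines between 10 bases before and 20 bases after the start. The windows are chr11:116671600-116671679 (+) for Snhg16, host of Snord1b, chr15:5116553-5116632 (+) for Rpl37, host of Snord72, chr7:110018255-110018334 (+) for Ipo7, host of Snora23, and chrX:37085203-37085282 (-) for Rpl39, host of Snora69.
Snhg16: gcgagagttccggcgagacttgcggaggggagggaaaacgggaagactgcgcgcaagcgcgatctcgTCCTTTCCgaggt
Rpl37: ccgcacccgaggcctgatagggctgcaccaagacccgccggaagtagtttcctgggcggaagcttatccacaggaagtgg
Ipo7: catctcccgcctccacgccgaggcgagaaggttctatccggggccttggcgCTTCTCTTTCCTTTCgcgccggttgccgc
Rpl39: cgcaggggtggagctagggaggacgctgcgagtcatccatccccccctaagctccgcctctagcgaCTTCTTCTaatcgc
Among these 4, such a run was found at Snhg16, Ipo7 and Rpl39 and not in this window of Rpl37. It was present in 22 of 45 windows of the members' host genes (48.9%) and in 28.7% of all 32851 windows of the table. The search was on the gene's strand only. A match is a description of these letters and not a mapped start site.

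Measured genes of proteins that carry or assemble the snoRNAs hardly differed in their medians. Fibrillarin (Fbl) and the assembly factor Phax had no probe set paired with 1 gene and are not among them. The core list held Nop56, Nop58 and Snu13 of box C/D particles, and Dkc1, Nhp2, Nop10 and Gar1 of box H/ACA particles. Of its 10 probe sets, 0 were 2-fold apart from the empty vector on any array, and 1 was 1.5-fold higher with mouse PRDM14. Of all probe sets with 1 gene, at most 0.102% were 2-fold and 0.37% 1.5-fold apart in either direction. Counts of 0 in lists this short, here and below, thus say little. The median difference of the core list was 0.01 with mouse PRDM14, 0.06 with sea urchin PRDM14 and also 0.06 once CBFA2T was added. Dkc1, the pseudouridine synthase, differed by 0.01, 0.07 and -0.02 in that order. Its levels were 7.42 to 7.504 over the arrays with PRDM14, against 7.43 with the empty vector. A probe set of Nop56, the dimmest of 3, differed by 0.77 with mouse PRDM14, while the others differed by 0.17 and -0.06. The 16 probe sets for assembly factors and Cajal body proteins, such as Coil, Nolc1 and Ruvbl1, had medians of 0.02, 0.05 and -0.004, and 0 were past 1.5-fold. The spliced noncoding host genes, 18 probe sets with symbols beginning with Snhg, had medians of 0.08, 0.04 and 0.05, with 0 past 1.5-fold.

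Other short noncoding RNAs differed in the same direction as the members with mouse PRDM14 and with sea urchin PRDM14 alone. This list of 13 probe sets holds among others Y RNAs, the RNA of RNase P, telomerase RNA and spliceosomal RNAs. The list also holds Rnu3a, a U3 snoRNA that the naming rule of the members did not take. The list had a median difference of 0.18 with mouse PRDM14 (11 of 13 above 0) and 0.19 with sea urchin PRDM14 (11 of 13). With CBFA2T added the list median was 0.19 (9 of 13), while that of the 81 members was 0.01 (42 above 0). The summed linear signal of the list was 9492 with mouse PRDM14, 9502 with sea urchin PRDM14, 8999 once CBFA2T was added and 8216 with the empty vector. Most of this sum came from both probe sets of Rn7sk, at 11.84 and 11.91 with mouse PRDM14 and 11.68 and 11.74 with the empty vector. MicroRNA genes did not show this shift from the empty vector, with medians of 0.01, -0.03 and -0.01 over 498 probe sets. Most of these were dim (array medians 3.59 to 3.65). Total RNA was taken with a purification kit, and how well it retained RNAs of this length was not given in the sources used here. Any part of short-RNA recovery in the members' differences was not tested.

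**Figure D5:**
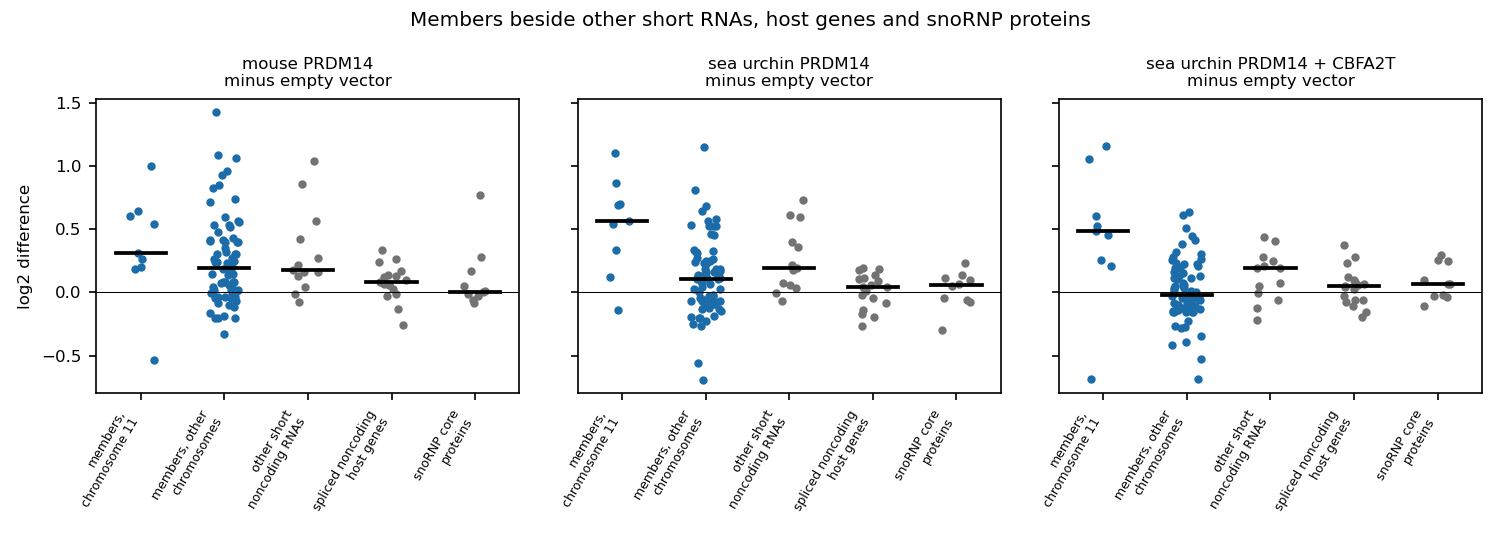
Points are log2 differences from the empty vector array and black bars are medians, in 1 panel for each array with PRDM14, for members of chromosome 11 (9), other members (72), other short noncoding RNAs (13), spliced noncoding host genes (18) and snoRNP core proteins (10). With sea urchin PRDM14 the chromosome 11 members (median 0.56) lie above the other members (0.11), and the host and protein lists stay near 0.

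Length was weakly related to the differences. RefSeq gives lengths of 48 to 248 bases for the members, with a median of 78. Pearson's r between length and the difference was 0.10 with mouse PRDM14, 0.05 with sea urchin PRDM14 and -0.15 once CBFA2T was added, each against the empty vector, and -0.32 for CBFA2T added against sea urchin PRDM14 alone, over 81 members.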

How the data were processed

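The deposited values are log2 expression values that the authors made with RMA, per the submitters' processing notes, with 1 column for each of 4 arrays of strip 2. Neither the version of RMA nor which arrays entered it together was given in the sources used here. Of 41345 probe sets, the platform annotation pairs 23521 with 1 gene, 1814 with several and 16010 with none. Members and lists were chosen with earlier results of these data known. Differences were taken between arrays without a filter and called at 2-fold (log2 of 1), since 1 array per group allows no test. The RefSeq table of GRCm38.p6 held all 78 member genes and gave chromosomes, lengths and host genes, a host being the 1 longer gene whose span holds the member. That table has no strand, so strand was not checked. A host's value is the mean of its probe sets. The naming rule took members 2-fold apart in any comparison, with their other probe sets and host mates. It also took the 5 largest differences each way per class and main comparison (1 for the Cajal body class). From the lists it took genes past 1.5-fold, or the largest. Not all members that the rule took are described in the text. Snord11, Snord43, Snord49b, Snord70, Snord91a, Snord104, Snord110, Snora16a, Snora21, Snora33, Snora61, Snora73b, Scarna2 and Scarna10, and list genes outside the rule, were added with their values in view. Alternatives were a 1.5-fold threshold, filters on the mean or highest value at 4.84, cyclic loess, centring, 1 value per gene, leaving out chromosomes 11 and 16 and, chosen after seeing the data, counting identical members once. Cyclic loess came from limma 3.58.1 in R 4.3.3, and everything else was computed in Python 3.11.15 (with pandas 2.3.3, numpy 2.4.6, scipy 1.17.1) and drawn with matplotlib 3.10.9.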

Additional observations from a re-analysis of the deposited data

Results flagged for a closer look

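Some probe sets were not counted as members because the annotation pairs them with several genes, at least 1 of them a snoRNA or Cajal body RNA gene. There are 46 of them, with 31 different sets of values. The largest difference from the empty vector among the 31 was 1.05 for sea urchin PRDM14 alone and 1.02 once CBFA2T was added. Both were past 2-fold, and with mouse PRDM14 it was 0.99. Each of these came from the same probe set, paired with Snord1c and Snord1b. It thus covers Snord1b, already described among the members, together with Snord1c. How its signal is divided between them was not given, so a separate signal of Snord1c was not tested. The medians of the 31 were 0.095 with mouse PRDM14, 0.05 with sea urchin PRDM14 and -0.05 once CBFA2T was added.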

How the results depend on the processing

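With 1 array per group, replicates could not be left out. No paired analysis was possible because no group has a second array. Centring on all other probe sets shifted differences by at most 0.0064, and cyclic loess shifted class medians by at most 0.025 and differences of named members by at most 0.060. Both kept each count and each of the named members' differences on its side of 2-fold. At 1.5-fold, higher members numbered 13 with mouse PRDM14, 8 with sea urchin PRDM14 alone and 5 once CBFA2T was added, and lower members 0, 1 and 2, each against the empty vector. Lower members at 1.5-fold numbered 1 for CBFA2T added against sea urchin PRDM14 and 3 for sea urchin against mouse PRDM14. They numbered 8 for CBFA2T added against mouse PRDM14. The shares over all probe sets with 1 gene were 0.128%, 0.191% and 0.221% in that order. With only members whose mean reached 4.84, 1 member was 2-fold higher with mouse PRDM14 (Snora23), since Snord72 and Snora69 have lower means. The share over all probe sets with 1 gene under that filter was 0.0425%. That filter gave medians with mouse PRDM14 of 0.31 for box C/D and 0.30 for Cajal body members, of 0.24 for box H/ACA with sea urchin PRDM14 and 0.16 once CBFA2T was added, and of -0.35 for Cajal body members in sea urchin against mouse PRDM14. The filter on the highest array gave 0.31 for box C/D with mouse PRDM14 and 0.24 and 0.16 for box H/ACA on the sea urchin arrays. With 1 value per gene, Cajal body medians were 0.084 with mouse PRDM14 and -0.15 for sea urchin against mouse PRDM14, as Scarna17 then counts once. Without chromosomes 11 and 16, 1 of 71 members was 2-fold higher with sea urchin PRDM14 (Snord13) and 0 with CBFA2T added. The shares over all probe sets with 1 gene were then 0.0143% and 0.0856%. Snord1b and Snord42b lie on chromosome 11. Class medians moved by at most 0.1 in all other alternatives. Signal near background limits the 21 members with a mean below 4.84.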

Other observations

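The short noncoding RNAs outside the naming rule of the members held values of their own. Rny1, a Y RNA, was at 8.63 with mouse PRDM14, 8.21 with sea urchin PRDM14, 8.03 with CBFA2T added and 7.59 with the empty vector. Rny3, the other Y RNA measured, was at 6.76, 6.63, 6.18 and 5.90 in the same order. Both thus had the order of arrays seen for Snora69 and Snora34. Rpph1, the RNA of RNase P, was at 7.88, 7.91 and 7.72 on the arrays with PRDM14, against 7.31 with the empty vector. Rnu3a, a U3 RNA of small-subunit ribosomal RNA processing, was at 4.44 with mouse PRDM14 and 4.42 with sea urchin PRDM14, but 3.80 with CBFA2T added and 4.02 with the empty vector, all below 4.84. Rnu12, a spliceosomal RNA, stayed at 7.76 to 7.92. The probe sets of Rn7sk were at 11.79 to 11.92 on the arrays with PRDM14, against 11.68 and 11.74 with the empty vector.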
